A study of Mus musculus with 39 samples.

Results

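The cytosolic ribosomal protein genes of the mouse were followed over unfertilized oocytes, fertilized 2-cell embryos, cloned 2-cell embryos and cumulus cells. A gene was a member when its RefSeq symbol was that of a protein of the large subunit (Rpl, Rplp) or the small subunit (Rps, Rpsa) with a number, and pseudogene symbols, the Rps6k kinases and the mitochondrial Mrp genes were left out. The array had 118 probes for 82 members, of 41174 probes and 16286 named genes in all. The members were 46 genes of the large subunit, 31 of the small subunit and 5 paralogues (Rpl3l, Rpl7l1, Rpl22l1, Rpl39l and Rps27l). Of the 90 symbols that RefSeq holds under this rule, 8 had no matching probe, among them Rpl10l and Rps4l. Each of the 82 members passed the filter on low intensity, 52 had 1 probe and 30 had several, and a gene is given here by its brightest probe over all arrays.

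The study asked how gene expression in embryos made by somatic cell nuclear transfer (SCNT) differs from that in fertilized embryos, and whether it changes with trichostatin A (TSA), an inhibitor of histone deacetylases, or with mRNA of the transcription factor Spi-C. RNA of 10 pooled oocytes or 2-cell embryos, or of 500 cumulus cells, was hybridized to each of 39 arrays with 1 dye, and all cells came from (B6xDBA/2)F1 mice, with female mice of 8 to 10 weeks of age as the source of oocytes and donor cells. The groups were unfertilized MII oocytes (OC, n = 7), 2-cell embryos from in vitro fertilization (IVF, n = 6), untreated cumulus cell clones (TSA(–), n = 8), cumulus cell clones given 5 nM TSA for 8 h from activation (TSA(+), n = 6), cumulus cell clones injected with Spi-C mRNA at 1.0 mg/ml (n = 4) or 0.1 mg/ml (n = 4) at the pronuclear stage (together Spi-C NT), and the donor cumulus cells (Cumulus, n = 4). Oocytes and cumulus cells were collected 15 h after the hCG injection, and the 2-cell embryos after 24 h of culture. The 75th percentile of the intensity, which sets the scale of an array, was lowest for OC arrays, at a median intensity of 373, and lay at 1071 for IVF, 1417 for TSA(–) and 1345 for TSA(+) arrays, at 2364 and 2523 for the embryos with 1.0 and 0.1 mg/ml of Spi-C mRNA, and at 918 for Cumulus arrays. Levels are log2 intensities relative to that percentile, so that the amount of RNA per cell cannot be told apart from the share of a transcript in it, and a level of 0 lies at the percentile.

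Most oocyte and cumulus cell markers lay where the labels place them. All 8 oocyte markers measured (such as Gdf9 and Zp3) were well above background on every OC array, and 6 of them were below it on every Cumulus array. However, 1 of them was well above background on every Cumulus array, and the brightest there was Gdf9, at a mean level of 0.37. OC arrays had a summed level of these markers of 3133 times the 75th percentile and Cumulus arrays one of 1.38. Among the embryos it was highest in IVF (637), followed by TSA(–) with 567.5, TSA(+) with 493.1, and 409 and 392 for 1.0 and 0.1 mg/ml of Spi-C mRNA. All 9 cumulus markers measured were well above background on every Cumulus array, with a summed level of 124 times the 75th percentile there against 2.43 in OC and, in the embryos, 7.20 (IVF), 6.73 (TSA(–)), 9.57 (TSA(+)), and 5.81 and 6.99 (1.0 and 0.1 mg/ml of Spi-C mRNA). Against IVF, 7 of the 9 were called higher in Cumulus (29.7% of all named genes) and 2 were not called, with a lowest log2 difference of −0.41. The brightest probe of a cumulus marker was that of Tnfaip6 in Cumulus, of Has2 in OC and of Amhr2 in the embryos, where 5 to 8 of the 9 were well above background on every array. The 3 blood cell markers measured had a summed level of 64.6 in Cumulus, ranging from 22.3 to 107, mostly from Lyz2, a lysozyme of macrophages, against at most 0.995 as the mean of any other group. The 6 markers of the 2-cell stage that were measured (such as Zscan4c and Tcstv1) were well above background on every IVF array, with a summed level of 177 there and of 32.7 in OC. In the clones their sum was lower, at 70.8 (TSA(–)), 81.5 (TSA(+)), and 49.4 and 43.6 (1.0 and 0.1 mg/ml of Spi-C mRNA), and in Cumulus it was 0.0592, with 3 of 6 below background on every array. The probe with the most signal was that of Tcstv1 in OC and IVF, of Tcstv3 in TSA(–) and TSA(+), and of Zfp352 in Spi-C NT, which gives no order of the transcripts themselves, since probes differ in response. The part of these cells and of the embryo markers in the results below was not tested.

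A ribosome holds 1 copy of nearly every ribosomal protein, and cells make the proteins of both subunits together with the ribosomal RNA. Their mRNAs belong to the TOP class, whose transcripts start with a C followed by a run of pyrimidines and whose translation is switched by the mTOR kinase through the RNA-binding protein Larp1. A growing oocyte stores ribosomes and mRNAs for the embryo, degrades many of these mRNAs around maturation and fertilization, and the mouse embryo starts broad transcription of its own genome at the 2-cell stage. Paralogues such as Rpl39l, known from the male germ line, and Rpl3l, known from muscle, can take the place of a core protein in some tissues.

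The starts of some members are shown here because the class is known by a pyrimidine run at the start of the transcript. Only the letters CTTTC and CTTTT were searched, and some members hold them near the annotated start and others do not. RefSeq promoter sequences (GRCm38.p6, 250 bases before to 50 after the annotated start) matched 62 of the 82 members. In the 30 bases around the start, 15 on each side, the letters CTTTC or CTTTT (differing in the last base, with GAAAG and AAAAG as their counterparts on the other strand) occurred on either strand in 21 of 62 members (33.9%) and in 1998 of 17492 promoters of protein-coding genes (11.4%). On the transcribed strand alone they occurred in 19 members (30.6%) and 6.11% of all promoters. Below, each sequence is read on the transcribed strand with these letters in capitals, and the annotated start is the 16th base. Rps6, Rplp2, Rpl28, Rps27 and Rpl27a are core proteins that hold a match, Rpl39l is a paralogue with one, and Rpl22l1 and Rpl3l are paralogues with none. Rpl22l1 nevertheless holds a pyrimidine run of other letters just after its annotated start. The match of Rpl39l ends before its annotated start, that of Rplp2 begins at it and that of Rps6 follows it.
Rps6, chr4:86857353-86857382, minus strand: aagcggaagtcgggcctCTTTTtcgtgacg
Rplp2, chr7:141447636-141447665, plus strand: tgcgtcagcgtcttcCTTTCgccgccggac
Rpl28, chr7:4792950-4792979, plus strand: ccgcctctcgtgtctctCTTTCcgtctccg
Rps27, chr3:90213634-90213663, minus strand: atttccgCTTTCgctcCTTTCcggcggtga
Rpl27a, chr7:109519180-109519209, plus strand: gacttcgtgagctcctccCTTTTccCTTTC
Rpl39l, chr16:10170213-10170242, plus strand: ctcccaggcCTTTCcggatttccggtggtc
Rpl22l1, chr3:28805493-28805522, plus strand: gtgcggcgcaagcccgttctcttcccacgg
Rpl3l, chr17:24727811-24727840, plus strand: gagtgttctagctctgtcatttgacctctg
On either strand the letters occurred in 14 of 41 members with a sequence that rose from OC to IVF, in 3 of 10 that fell and in 4 of 11 that were not called, and a window without them says only that these letters are not in it.

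Over the 7 groups the ribosomal protein genes stood at 3 heights. The median member level per array was 1.65 ± 0.19 (SD, n = 7) in OC, 3.66 ± 0.16 (n = 6) in IVF and 6.45 ± 0.45 (n = 4) in Cumulus. The clones lay beside IVF, at 3.82 ± 0.27 (n = 8) in TSA(–), 4.08 ± 0.14 (n = 6) in TSA(+), 3.80 ± 0.11 (n = 4) with 1.0 mg/ml and 3.76 ± 0.14 (n = 4) with 0.1 mg/ml of Spi-C mRNA. No OC array overlapped an embryo array and no embryo array a Cumulus array, since OC reached from 1.42 to 2.01, the embryos together from 3.43 to 4.28 and Cumulus from 6.01 to 7.06. The median over all named genes did not follow this order, with −2.17 in OC, −1.27 in IVF and −1.57 in Cumulus as means over arrays. The large subunit and the small subunit moved together, with mean array medians of 1.75 and 1.69 in OC, 3.77 and 3.47 in IVF and 6.63 and 6.49 in Cumulus.

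**Figure D1:**
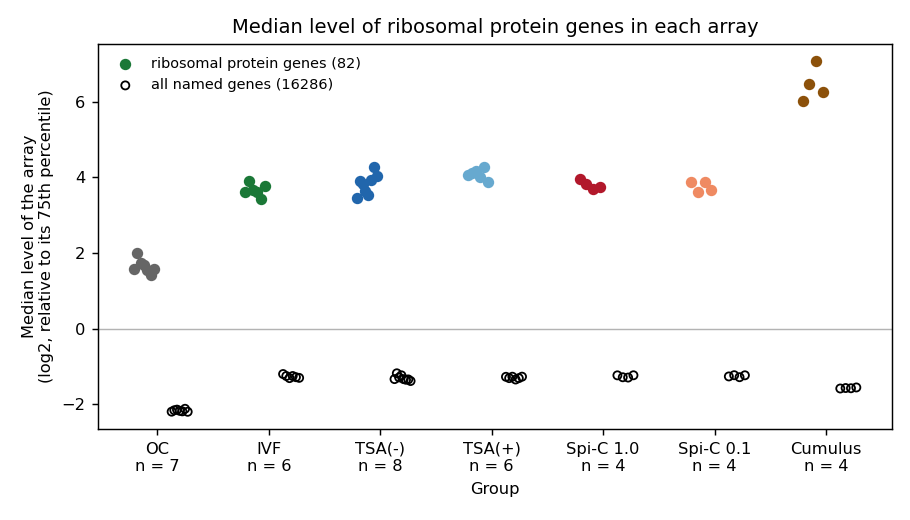
Median level per array (log2, relative to its own 75th percentile) of the 82 ribosomal protein genes (filled points) and of all 16286 named genes (open points) in each group, 1 point an array. The ribosomal protein genes lie between 1.42 and 2.01 in OC, between 3.43 and 4.28 in all embryos and between 6.01 and 7.06 in Cumulus.

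From the oocyte to the fertilized 2-cell embryo (IVF against OC), most ribosomal protein genes rose. With limma and a Benjamini-Hochberg adjusted p under 0.01, 57 of 82 members were higher and 11 lower in IVF, with a median log2 difference of 1.96. Among all named genes, 27.8% were higher and 44.4% lower, with a median of −0.71. Of the large subunit 32 of 46 genes were higher and 7 lower, of the small subunit 22 of 31 and 3, and of the paralogues 3 of 5 and 1. OC and IVF arrays did not overlap in 61 members (58.6% of all named genes). Scaling moved the split of calls, with 51 higher and 18 lower when each array was centred on its median and 72 higher and 2 lower after quantile normalization, where 21.5% and 31.5% of all named genes were higher, 55.5% and 35.9% lower, and their median went to −1.42 and −0.21. The rise was present on both slides that held OC and IVF arrays, with member medians of 2.04 and 2.20, and on the 4 scan days that held both, from 1.59 to 2.01.

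Several small subunit genes that rose were near background in oocytes. Rps9, a small subunit protein at the mRNA entry channel, had levels from −5.06 to −3.86 with a median of −4.40 in OC, where 6 of 7 arrays were well above background. In IVF it lay from 0.96 to 1.47 with a median of 1.17. The 2 groups did not overlap, and the difference was 5.62 (SE 0.22, limma adjusted p = 1.82e-19), a 49.2-fold rise. Rps19, the first gene found mutated in Diamond-Blackfan anaemia, was well above background on 4 of 7 OC arrays, from −6.17 to −3.60 with a median of −4.51. It reached −0.69 to −0.01 with a median of −0.20 in IVF, a difference of 4.39 (SE 0.29, adjusted p = 4.64e-14 in limma). Rps6, the substrate of the S6 kinases whose start is printed above, went from a median of 0.48 (−0.10 to 0.98) to 4.03 (3.55 to 4.18), a 10.5-fold rise (log2 3.39, SE 0.22, limma adjusted p = 3.54e-14). Rpsa, also known as the laminin receptor, rose from a median of −4.30 (−5.18 to −3.96, 6 of 7 arrays well above background) to −2.17 (−2.58 to −1.74), a difference of 2.25 (SE 0.21, adjusted p = 8.26e-11 in limma). Rps27a, made as a fusion with ubiquitin, rose by 3.02 (SE 0.18), Rps4x, the X-linked form of Rps4, by 3.87 (SE 0.16), Rpl7 by 3.33 (SE 0.14) and Rpl3, a core protein of the large subunit, by 3.99 (SE 0.29), each without overlap between OC and IVF.

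The P stalk, the arm of the large subunit that recruits elongation factors, did not move as 1 unit. Rplp0, its base, had a median of 6.35 (5.92 to 6.52) in OC and 7.25 (7.09 to 7.43) in IVF, and Rplp1 a median of 4.95 (4.46 to 5.32) and 6.15 (6.02 to 6.45). Both rose without overlap, by 0.99 (SE 0.14, limma adjusted p = 2.97e-07) and 1.27 (SE 0.15, limma adjusted p = 1.06e-08), but with median centring Rplp0 stood at 0.28 with no call (limma adjusted p = 0.109). Rplp2, the partner of Rplp1, had a median of 8.18 (7.31 to 8.24) in OC and 6.86 (6.69 to 7.01) in IVF and fell without overlap by 1.09, but rose by 1.17 after quantile normalization. Of the pair that forms a particle with the smallest ribosomal RNA of the large subunit and binds Mdm2, Rpl11 rose by 0.82 (SE 0.18, limma adjusted p = 0.000173) with overlapping groups and stood at 0.11 with no call after median centring (limma adjusted p = 0.615), while Rpl5 had medians of 4.06 in OC and 3.76 in IVF (difference −0.21, SE 0.14, limma adjusted p = 0.163).

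A small group of core genes was higher in the oocyte. Rpl27a, a large subunit protein, had levels from 2.09 to 3.49 with a median of 2.43 in OC and from −0.27 to 0.48 with a median of 0.05 in IVF. It fell by 2.62 without overlap (SE 0.22, limma adjusted p = 6.03e-12), to 1 part in 6.14. Rpl32 fell by 1.58 (SE 0.17, adjusted p = 1.2e-09 in limma), from a median of 5.51 to one of 4.06, but stood at 0.22 with no call after quantile normalization. Rpl10, a late-joining protein near the catalytic centre, fell by 0.83 (SE 0.23, limma adjusted p = 0.00176) with overlapping groups and turned to 0.49 after quantile normalization. Rps15a was called lower at −1.23 by its brightest probe, turned to 0.22 after quantile normalization, and its other probe, below background on all 7 OC arrays and well above it on all 6 IVF arrays, was called higher, by at least 8.54-fold (adjusted p = 1.17e-08 in limma). It was the 1 gene of the 30 with several probes whose probes were called in opposite directions here.

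**Figure D2:**
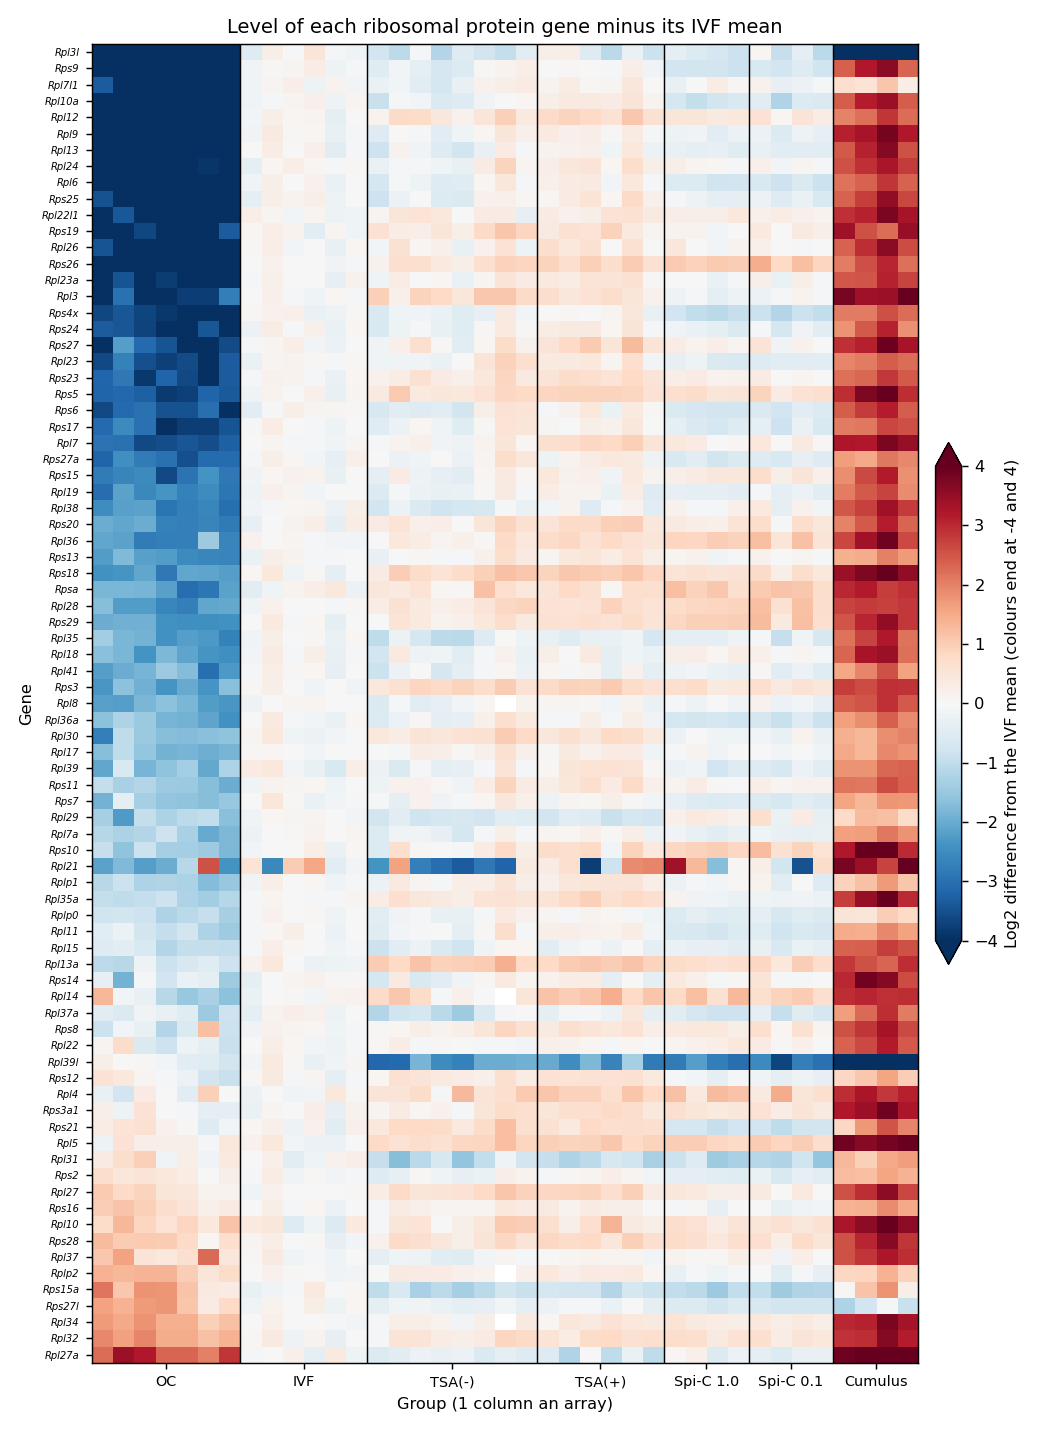
Log2 level of 81 of the 82 ribosomal protein genes (rows, ordered by the IVF minus OC difference) minus the mean of that gene over IVF, in each of the 39 arrays (columns, by group); white cells of Rpl8, Rpl14, Rplp2 and Rpl34 in TSA(–) replicate 7 are missing values and colours end at −4 and 4. OC is blue for most genes and red at the bottom, where Rpl32, Rplp2, Rpl10, Rps27l and Rps15a change direction after quantile normalization, while Cumulus is red for nearly all genes except Rpl39l, Rpl3l and Rps27l, the last of which stands at 0.13 when arrays are centred on their medians.

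Of the 5 paralogues, 4 changed between oocyte and fertilized embryo. Rpl3l was below background on all 7 OC arrays, with measured levels from −7.77 to −6.09, and well above it on all 6 IVF arrays, from −1.33 to −0.36 with a median of −0.84. It was at least 65.6-fold higher in IVF (limma adjusted p = 3.82e-18), where the bound takes for each OC array the higher of its lowest signal well above background and the signal of the probe, and the measured means were −0.83 and −6.96. Rpl22l1, which can replace Rpl22, rose by 4.48 (SE 0.21, adjusted p = 1.28e-17 in limma) without overlap, from a median of −2.67 (−3.18 to −1.52) to 1.88 (1.66 to 2.15). Rpl22 itself had medians of 3.82 and 4.15 and was not called (difference 0.28, SE 0.19, limma adjusted p = 0.179), while its other probe was called lower at −6.35. Rpl7l1 rose by 5.56 (SE 0.34, limma adjusted p = 7.73e-15), from a median of −4.56 with 6 of 7 OC arrays well above background to 1.26. Rps27l, a p53 target, fell by 1.25 (SE 0.19, adjusted p = 1.28e-06 in limma), from a median of 7.96 (6.90 to 8.32) to 6.60 (6.36 to 6.80), but rose by 1.01 after quantile normalization, while Rps27 rose by 3.68 (SE 0.29). Rpl39l had medians of 3.53 (2.91 to 3.86) in OC and 3.61 (3.33 to 4.04) in IVF and was not called (0.21, SE 0.25, limma adjusted p = 0.434), although its other probe, well above background on 2 of 7 OC arrays, was called higher at 3.59. Rpl39, a protein of the peptide exit tunnel, rose by 1.55 (SE 0.22, limma adjusted p = 2.85e-07).

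**Figure D3:**
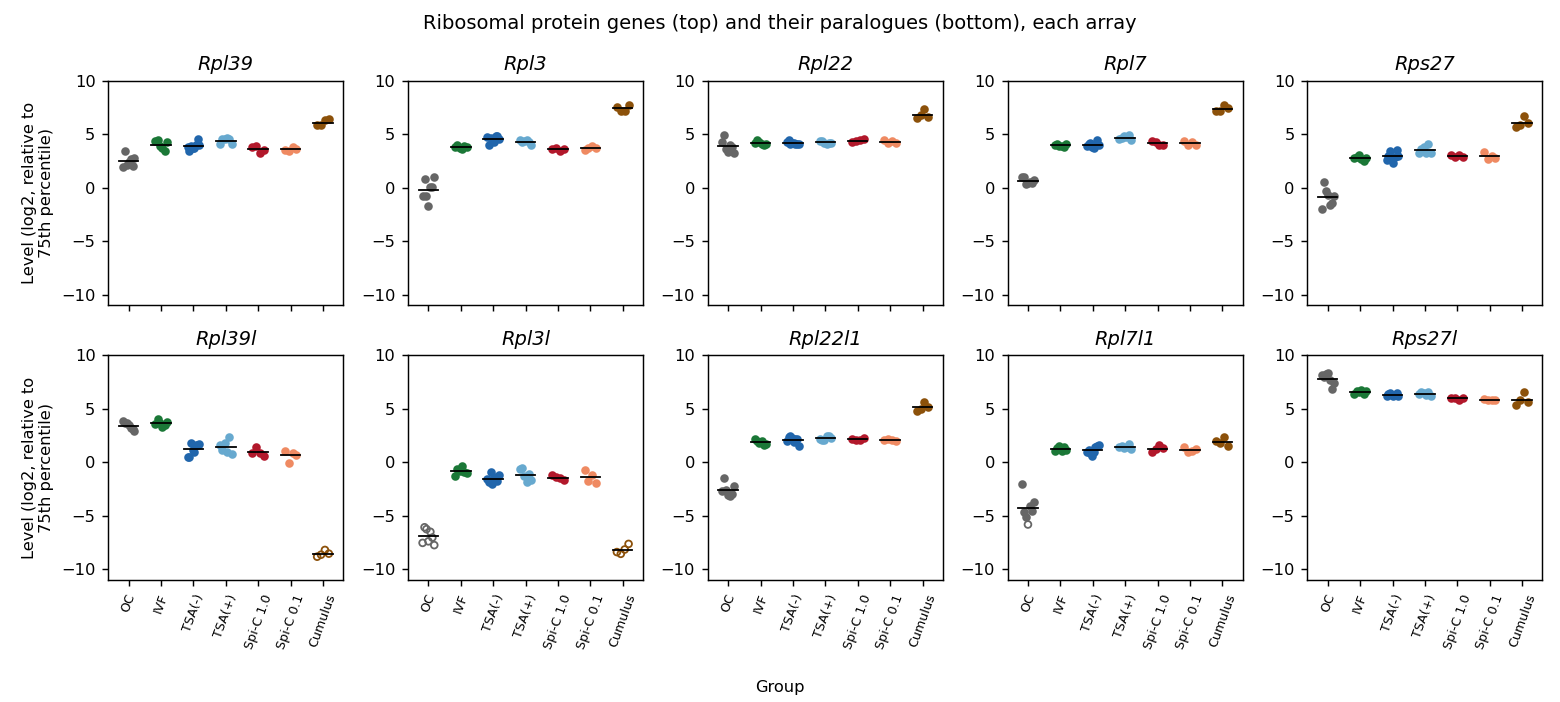
Level in each array (log2, relative to the 75th percentile) of 5 ribosomal protein genes (top) and their paralogues (bottom) by group, with black bars for group means and open points for arrays not well above background; levels of different genes are not comparable. Rpl39l drops from IVF to the clones and is below background in Cumulus, Rpl3l is below background in OC and Cumulus, and the top genes are highest in Cumulus.

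Cumulus cells, the donors of the clones, had higher levels of nearly all core genes than IVF embryos. Against IVF, 77 of 82 members were higher and 3 lower (29.7% higher and 34.7% lower among all named genes), with a median log2 difference of 2.66 beside −0.16 over all named genes. All 46 genes of the large subunit and 30 of 31 of the small subunit were higher, and the 3 lower genes were the paralogues Rpl39l, Rpl3l and Rps27l. Groups did not overlap in 79 members (64.1% of all named genes). The largest rise was in Rpl27a, which stood at 3.98, 4.25, 4.66 and 4.53 in the 4 Cumulus arrays against −0.27 to 0.48 in IVF, a difference of 4.27 (SE 0.25, limma adjusted p = 2.91e-15). Rpl27a was thus lower in the 2-cell embryo than in both oocytes and cumulus cells. By the brightest probe, the smallest rises that were called were in Rplp0 (0.69, SE 0.16, limma adjusted p = 0.000437) and Rpl29 (0.98, SE 0.19, adjusted p = 5.1e-05 in limma). The other probe of Rplp0 was called higher at 1.22, and the 4 probes of Rpl29 were called higher at 0.98 to 3.29. Rps15a (0.81, limma adjusted p = 0.0238, with its other probe at −0.40 and no call) and Rpl7l1 (0.65, limma adjusted p = 0.16, with its other probe called higher at 1.32) were not called.

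Rpl39l was below background on all 4 Cumulus arrays, at −8.85, −8.67, −8.22 and −8.57, and at least 4739-fold lower than in IVF (limma adjusted p = 4.73e-25, means −8.58 and 3.63). Its other probe, dimmer in IVF, was also below background on all 4 Cumulus arrays and at least 94.4-fold lower there than in IVF (limma adjusted p = 1.59e-07). Rpl3l was likewise below background there, at −8.42, −8.58, −8.18 and −7.65, and at least 167-fold lower than in IVF (limma adjusted p = 1.44e-18, means −8.21 and −0.83). For both genes and for both probes of Rpl39l the signal of the probe itself set the bound on every Cumulus array, so that the bound equals the measured difference. These 2 genes were thus present in the embryo and not detected above background in the donor cells, whereas Rpl39 was higher in Cumulus by 2.07 (SE 0.25) and Rpl3 by 3.64 (SE 0.33). Rps27l was 0.73 lower with overlapping groups (SE 0.22, limma adjusted p = 0.00503), stood at 0.13 with no call when arrays were centred on their medians, and was not called without Cumulus replicate 1, 2 or 4 or IVF replicate 2 or 4. Cumulus arrays lay on 1 slide, and no IVF array shares their slide, scan day, scanner model or software version, so that these and the cell type cannot be told apart, and centring on array medians moved the median of all genes from −0.16 to 0.70 and left 79 members higher and 2 lower (42.9% and 25.2% of all named genes).

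The clones were close to IVF for most ribosomal protein genes. In TSA(–) 8 of 82 members were higher and 4 lower than in IVF (10.3% and 13.5% of all named genes), with a median of 0.10 beside −0.11 over all genes. In TSA(+) 18 were higher and 3 lower (10.6% and 14.1% of all named genes), with a median of 0.33 beside −0.20. The shares of members called were 9.76% higher and 4.88% lower in TSA(–), near and below the background, and in TSA(+) 21.95% higher, above the background, and 3.66% lower. Both comparisons use the same 6 IVF arrays. Groups did not overlap in 12 members for TSA(–) against IVF and in 29 for TSA(+) against IVF (20.02% and 27.5% of all named genes).

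The largest change was in Rpl39l. Its levels were 0.48 to 1.76 with a median of 1.38 in TSA(–), 0.80 to 2.32 with a median of 1.38 in TSA(+), and 3.33 to 4.04 with a median of 3.61 in IVF. Every clone array lay below every IVF array, and also below every OC array, which started at 2.91. Rpl39l was 5.30-fold lower in TSA(–) than in IVF (log2 −2.41, SE 0.24, limma adjusted p = 7.44e-09) and 4.55-fold lower in TSA(+) (log2 −2.19, SE 0.25, limma adjusted p = 1.45e-07). The gene lies on chromosome 16, and its other probe was also called lower, at −5.06 in TSA(–) and −3.01 in TSA(+), where it was well above background on 4 of 8 and 5 of 6 arrays. The markers of the 2-cell stage were lower too, with 4 of 6 called in TSA(–) and 2 of 6 in TSA(+) against IVF (median −1.35 and −1.22), and their part in the difference of Rpl39l was not tested.

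Other members that were lower in the clones were Rpl31, at the exit of the peptide tunnel, and Rpl29. Rpl31 had medians of 0.91 in IVF, −0.12 in TSA(–) and −0.16 in TSA(+), with log2 differences of −0.98 (SE 0.21, limma adjusted p = 0.000666) and −0.99 (SE 0.23, limma adjusted p = 0.00122). Rpl29 had medians of 1.26, 0.55 and 0.50, with differences of −0.62 (SE 0.16, limma adjusted p = 0.00407) and −0.67 (SE 0.17, limma adjusted p = 0.00362), and of its 4 probes 1 was called lower in TSA(–) and 2 in TSA(+). Rps15a was lower in TSA(–) by 1.00 (SE 0.26, limma adjusted p = 0.00388), while its difference of −0.83 in TSA(+) was not called (limma adjusted p = 0.0245). Its other probe stood at −0.45 with no call in TSA(–) and was called lower at −1.45 in TSA(+). Of these genes, TSA(–) overlapped IVF only in Rpl31, and TSA(+) in none.

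The members higher in the clones moved by less than Rpl39l. Rpl13a, also known for a role outside the ribosome in translational silencing, had a median of 3.13 (2.98 to 3.62) in IVF, 4.18 (3.99 to 4.64) in TSA(–) and 4.21 (3.997 to 4.34) in TSA(+). It was 2.00-fold higher in TSA(–) (log2 1.00, SE 0.15, limma adjusted p = 6.66e-06) and 1.97-fold higher in TSA(+) (log2 0.98, SE 0.16, limma adjusted p = 2.46e-05), without overlap in either. Rpl5 had a median of 3.76 (3.58 to 4.23) in IVF, 4.61 (4.41 to 5.01) in TSA(–) and 4.73 (4.61 to 4.88) in TSA(+), and was higher by 0.80 (SE 0.13, limma adjusted p = 2.96e-05) and 0.92 (SE 0.14, limma adjusted p = 1.1e-05). Rps18, a small subunit protein at the head, was higher by 0.82 in TSA(–) and 0.98 in TSA(+) (SE 0.16 and 0.17). Each of these 3 genes also rose from IVF to Cumulus, by 2.66, 3.82 and 3.74, but 77 of all 82 members were higher there. Rpl31 and Rpl29, which were lower in the clones, also rose from IVF to Cumulus, by 1.36 and 0.98 in their brightest probes. None of Rplp0, Rplp1, Rplp2, Rpsa, Rps6, Rpl11, Rps19 and Rps27a was called in either comparison. By the brightest probe their differences from IVF lay between −0.18 (Rps6 in TSA(–)) and 0.58 (Rps19 in TSA(–)). The other probe of Rpsa stood at −0.91 in TSA(–) and −0.34 in TSA(+), with no call in either.

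These small counts rested on few arrays and on the scaling. Leaving out IVF replicate 1, 3 or 5 or TSA(–) replicate 2, 6 or 7 left 5 members higher in TSA(–), leaving out IVF replicate 4 left 2 lower, and leaving out IVF replicate 5 left 11 higher in TSA(+). With the slide as a fixed block, 4 were higher and 1 lower in TSA(–) (4.88% of members higher, beside 5.49% of all named genes) and 9 higher and 2 lower in TSA(+) (10.98% beside 8.52%). With quantile normalization 21 were higher and 4 lower in TSA(–) (25.6% beside 12.7%) and 32 and 5 in TSA(+) (39.02% beside 13.3%). Whether the share of higher members lay above the background thus depended on the setting in TSA(–). In TSA(+) this share lay above the background in each setting, and its size depended on the setting. Median centring gave 24 higher and 1 lower in TSA(+) (29.3% beside 13.6%) and moved the median of all genes there from −0.20 to −0.01. The lower calls of Rpl29, Rpl31 and Rps15a in TSA(–) and of Rpl29 in TSA(+) were lost with the slide as a fixed block, and those of Rpl29 and Rpl31 in TSA(+) with median centring. Within the 3 slides that held TSA(–) and IVF the member median went from −0.09 to 0.22, and within the 3 that held TSA(+) and IVF from 0.19 to 0.49. Within scan days it went from −0.03 to 0.51 over the 4 days that held TSA(–) and IVF and from 0.19 to 0.43 over the 3 that held TSA(+) and IVF.

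**Figure D4:**
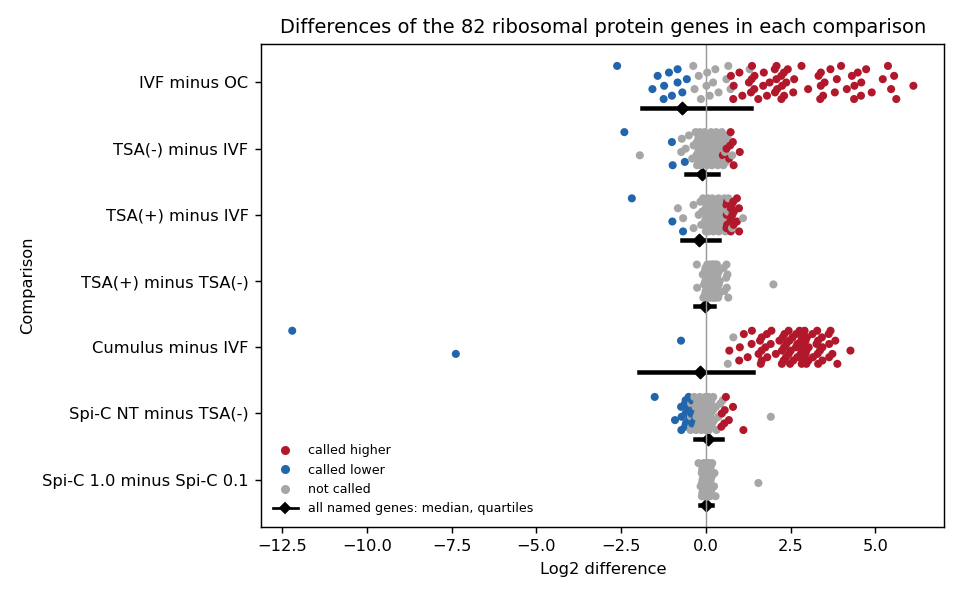
Log2 difference of each of the 82 ribosomal protein genes (points, red called higher, blue called lower, grey not called, limma adjusted p under 0.01) in 7 comparisons, with the median (diamond) and quartiles (black line) over all 16286 named genes. Members lie to the right of the other genes in IVF minus OC (median 1.96) and Cumulus minus IVF (median 2.66) and near 0 elsewhere, and Rpl39l is the blue point at −2.41 and −2.19 in the clones; 2 members are called lower in IVF minus OC after quantile normalization.

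TSA treatment itself gave no call among the ribosomal protein genes. In TSA(+) against TSA(–), 0 of 82 members were called in limma, beside 0.0737% higher and 0.0368% lower among all named genes, 9 members had an unadjusted p under 0.05 in limma (2629 of all 16286 named genes), and the methods' one-way test with Tukey's HSD called 2 members higher (142 higher and 202 lower of all named genes). The median difference was 0.22 beside −0.03 over all named genes, and 0.39 beside 0.14 when each array was centred on its median. Rpl7, an early-binding large subunit protein, had the lowest adjusted p, at 4.48 to 4.93 with a median of 4.72 in TSA(+) and 3.75 to 4.45 with a median of 4.07 in TSA(–). These groups did not overlap (difference 0.66, SE 0.14, limma adjusted p = 0.0164). Over the 3 probes of Rpl7 the difference ranged from 0.29 to 0.66, with no call. Rpl39l differed by 0.22 (SE 0.24, limma adjusted p = 0.689), and by 2.04 with no call in its other probe. Leaving out TSA(–) replicate 7, the array with the most spots marked as outliers (636) and the highest member median of its group (4.28), gave 1 member higher. Within scan days the member median was −0.26, 0.17 and 0.34, and on the 1 slide that held both groups 0.13.

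Clones injected with Spi-C mRNA differed from untreated clones in both directions. Against TSA(–), 8 of 82 members were higher and 19 lower (12.7% and 11.4% of all named genes), with a median of −0.07 beside 0.07 over all named genes. The shares were 9.76% and 23.2% of the members. Of the large subunit 4 were higher and 10 lower, of the small subunit 4 and 8, and of the paralogues 1, Rps27l, was lower. Only 10 members did not overlap between the groups (11.5% of all named genes). The split was 3 higher and 24 lower when arrays were centred on their medians, where the median of all genes went from 0.07 to −0.08, and 10 higher and 12 lower after quantile normalization. The share of lower members was then 14.6%, beside 11.1% of all named genes, and with median centring 29.3% beside 15.4%, so that its excess over the background depended on the scaling. The direction of the member median was not stable, at 0.06 beside 0.01 over all named genes after quantile normalization and 0.01 beside 0.08 without TSA(–) replicate 7, and with normexp background correction it was −0.07 beside −0.16. All Spi-C NT arrays were scanned on a day, with a scanner model and with a software version that no TSA(–) array shares, so that these and the mRNA cannot be told apart. Of the 8 oocyte markers 1 was higher and 3 lower in Spi-C NT than in TSA(–), and of the 6 markers of the 2-cell stage 0 and 2, and their part in these calls was not tested.

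Rps21, a small subunit protein, fell most. It stood at 2.39, 2.37, 2.14 and 2.29 in the 1.0 mg/ml arrays and at 2.30, 2.05, 2.32 and 2.33 in the 0.1 mg/ml arrays, against 3.47 to 4.26 with a median of 3.80 in TSA(–). Every Spi-C NT array was below every TSA(–) array and below every IVF array, which started at 2.63. The difference from TSA(–) was −1.51 (SE 0.11, limma adjusted p = 1.34e-10), a 2.85-fold fall, while its other probe stood at 0.26 with no call. Rpl3 fell by 0.91 (SE 0.12, adjusted p = 1.31e-06 in limma), from a median of 4.65 (4.01 to 4.89) in TSA(–) to medians of 3.60 and 3.74 with 1.0 and 0.1 mg/ml, without overlap. Rps4x fell by 0.73 (SE 0.12, adjusted p = 4.9e-05 in limma) and Rps27a by 0.62 (SE 0.14, adjusted p = 0.000981 in limma), both without overlap. Rpl11, Rplp0 and Rplp2 fell by 0.60, 0.41 and 0.41 with overlapping groups (Rplp2 without TSA(–) replicate 7, an outlier spot), but the difference of Rplp0 went to 0.000855 after quantile normalization and its other probe stood at −0.21 with no call, and the difference of Rplp2 went to −0.02 with no call after quantile normalization.

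Among the members that rose, Rpl29 was higher by 0.80 (SE 0.12, limma adjusted p = 6.65e-06) without overlap, from a median of 0.55 in TSA(–) to 1.47 and 1.26, beside 1.26 in IVF. Of the 4 probes of Rpl29, however, another was called lower by 1.13, so that its probes were called in opposite directions, and their mean differed by 0.01 with no call. Rps10 rose by 0.68 (SE 0.17, limma adjusted p = 0.00257) with overlapping groups. Rpl39l, at 0.84, 1.42, 0.87 and 0.63 with 1.0 mg/ml and 1.09, −0.05, 0.91 and 0.66 with 0.1 mg/ml, was not called against TSA(–) (−0.43, SE 0.23, limma adjusted p = 0.166, with its other probe at 2.04 and no call), and all 8 arrays lay below every IVF array.

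**Figure D5:**
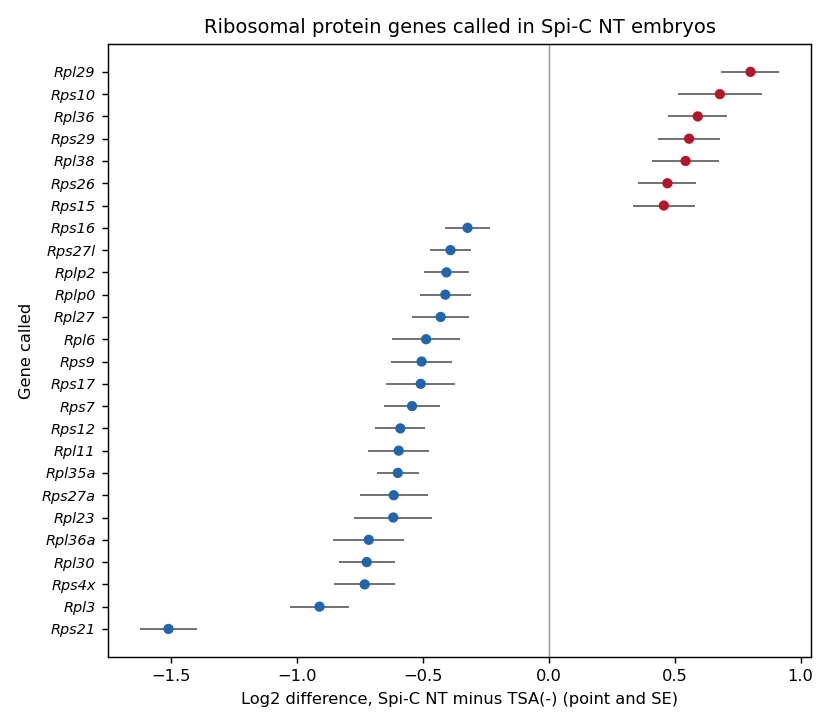
Log2 difference (point) and its SE (bar) between Spi-C NT and TSA(–) for 26 of the 27 ribosomal protein genes with a limma adjusted p under 0.01, ordered by size, red for higher and blue for lower. Of the genes shown, by the brightest probe, Rps21 is lowest at −1.51 and Rpl29 highest at 0.80, and Rplp0, at −0.41, is at 0 after quantile normalization. The other probe of Rps21 is not called, and the probes of Rpl29 are called in opposite directions.

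Spi-C belongs to the ETS family, whose factors bind DNA around the letters GGAA. The letters CCGGAA, searched on both strands, occurred in the 300 bases of 32 of 62 members with a RefSeq promoter (51.6%) and in 3342 of 17492 promoters of protein-coding genes (19.1%). Read on the other strand, CCGGAA can overlap the last letters of CTTTC, as it does at Rpl39l and Rps27 above. CCGGAA occurred in 3 of the 4 members with a promoter sequence that were higher in Spi-C NT, in 7 of the 15 that were lower and in 22 of the 43 that were not called (51.2%). It is shown in capitals for Rps10, which rose, and Rps21, which fell by its brightest probe but was not called by its other probe. In these genes it begins 29 and 26 bases before the start.
Rps10, chr17:27635256-27635285, minus strand: gagccgcgcagcCCGGAAgagacgctgcgc
Rps21, chr2:180257341-180257370, plus strand: gagtaccctgacCCGGAAgcacttaccgag
A match is a description of the sequence and not of binding.

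The 2 amounts of Spi-C mRNA gave no call between them. With 1.0 against 0.1 mg/ml, 0 of 82 members were called in limma (0% higher and 0% lower of all named genes), 0 members had an unadjusted p under 0.05 (632 of all 16286 named genes), and the methods' one-way test with Tukey's HSD called 0 members (1 higher and 11 lower of all named genes). The median difference was 0.04 beside 0.00 over all named genes, and on the 2 slides that each held 2 arrays of both amounts it was 0.08 and −0.03. The largest difference, 1.55, was in Rpl21, whose level was well above background on 3 of 4 arrays in each group and on 1 of 7 OC, 5 of 6 IVF and 2 of 8 TSA(–) arrays. Its level therefore lies near the limit of detection in oocytes and embryos.

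Other ribosomal proteins and other genes of the TOP class were taken from 2 lists. Of the 4 ribosomal proteins outside the symbol rule, 3 rose and 1 fell from OC to IVF. Fau and Rpl36al rose by 1.67 and 2.40 (limma adjusted p = 1.91e-08 and 3.13e-10). Rack1, a scaffold protein of the small subunit, fell by 4.41 (limma adjusted p = 3.69e-20). All 4 were higher in Cumulus than in IVF, by 1.46 to 3.74. Of the 17 translation factors and other TOP genes, 7 were higher and 7 lower in IVF than in OC (41.2% each, beside 27.8% and 44.4% of all named genes), with a median of 0.13. The elongation factor subunit Eef1g rose by 3.93 and the poly(A)-binding protein Pabpc1 by 4.44 (limma adjusted p = 8.13e-18 and 1.12e-10). The nucleolar chaperone Npm1 fell by 3.28 and Eef1b2 by 1.97 (limma adjusted p = 2.25e-15 and 8.24e-11). In Cumulus 12 of these 17 genes were higher and 1 lower than in IVF (29.7% and 34.7% of all named genes), with a median of 1.56. In Spi-C NT 0 were higher and 7 lower than in TSA(–) (12.7% and 11.4% of all named genes), with a median of −0.21, among them Eef1a1 at −0.80 (limma adjusted p = 2.76e-08) and Tpt1 at −0.9997 (limma adjusted p = 7.89e-09).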

How the data were processed

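For each array the authors deposited scanner output, in which each spot has a processed intensity from which the Feature Extraction software (version 9.5.3.1 for OC, IVF, TSA(–) and TSA(+), version 10.5.1.1 for Spi-C NT and Cumulus) had subtracted the background. RNA had been amplified in 2 rounds, with a kit that starts from the poly(A) tail, so that a change in level and one in tail length cannot be told apart. A table of the authors' log2 values, relative to each array's 75th percentile and each probe's median, served as an alternative.

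Here the array's 75th percentile was subtracted on the log2 scale, 1820 values of outlier spots were left out, and tests covered the 39520 probes that reached an intensity of 10 on 1 or more IVF or SCNT arrays. No member probe was saturated. Probes were named through their accessions in RefSeq (GRCm38.p6): 23374 had a symbol. Ribosomal protein genes have many pseudogenes, and cross-hybridization was not tested. With limma 3.58.1 (R 4.3.3) 1 fit held all arrays but those of Spi-C NT, and another fit, used for the Spi-C mRNA comparisons, left out OC and Cumulus, where Spi-C NT is the mean of both amounts. P-values were adjusted over all probes tested. Nothing in the labels ties arrays to separate experiments, so p-values measure the spread between these arrays, and the number of arrays limits the precision. The limma step was tested on simulated data.

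Members and lists were chosen with earlier results of these data known. The genes named are components with a role of their own (P stalk, Rpsa, Rps6, Rpl5, Rpl11, Rps19, Rps27a), the paralogue pairs and, per comparison, up to 2 members in each direction with the largest change among those called without overlap whose probe was well above background throughout the higher group. Others were named after their values were seen, and some genes that the rule or a list names are not reported here. Alternatives were median centring, quantile normalization, normexp (offset 50), 2 filters on dim probes, saturated probes left out, means over probes, slide, scan day or replicate number as a block, 1 fit of all 39 arrays, Tukey's HSD after a one-way test, as in the methods, and leaving out each array; the slide as a fixed block was added after seeing the data.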

Additional observations from a re-analysis of the deposited data

Results flagged for a closer look

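A sample was marked when its gap to the nearest other sample of its group passed Dixon's 95% limit, which happens by chance in about 1 of 20 groups; 9 of 224 groups of values were marked. TSA(–) replicate 7 was high in Rpl11 (6.79, the others 5.58 to 6.13), Rpl39 (4.56, the others 3.48 to 3.98) and Rpl5 (5.01, the others 4.41 to 4.67), and TSA(–) replicate 2 in Rpl22 (4.48, the others 4.08 to 4.26). TSA(+) replicate 4 was low in Rps15a (2.08, the others 2.41 to 2.58). With 0.1 mg/ml of Spi-C mRNA, replicate 2 was low in Rps21 (2.05, the others 2.30 to 2.33), replicate 1 high in Rps27l (5.94, the others 5.83 to 5.84) and replicate 4 low in Rpsa (−1.46, the others −1.09 to −1.02), and with 1.0 mg/ml replicate 3 was low in Rps27l (5.84, the others 6.01 to 6.03). No array was marked for its median over the ribosomal protein genes.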

How the results depend on the processing

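Quantile normalization turned the IVF minus OC difference of Rpl10 to 0.49, Rpl32 to 0.22, Rplp2 to 1.17, Rps15a to 0.22 and Rps27l to 1.01 and the Spi-C NT difference of Rplp0 to 0.000855. The mean over probes turned Rps15a in IVF minus OC to 0.95, and median centring turned Rps27l in Cumulus minus IVF to 0.13. The cause was not tested. Members lower in IVF than in OC numbered 18 with median centring and 2 with quantile normalization. In TSA(–) against IVF 21 were higher with quantile normalization, 13 with normexp and 4 with the slide as a fixed block, which left 1 lower. In TSA(+) against IVF 32 were higher and 5 lower with quantile normalization, 1 was lower with median centring and 9 were higher with the slide as a fixed block. In TSA(+) against TSA(–) 1 was higher with median centring, quantile normalization, normexp or 1 fit of all 39 arrays, and 2 with Tukey's HSD. In Spi-C NT against TSA(–) 3 were higher with median centring, 12 lower with quantile normalization, and 5 higher and 12 lower in 1 fit of all 39 arrays. Normexp moved the median of all genes to −1.11 in IVF minus OC, 0.16 in Cumulus minus IVF and −0.16 in Spi-C NT.

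Same-numbered arrays did not deviate together, with correlations from −0.0875 to 0.0846, and they were not treated as pairs. Arrays of 1 slide also had low correlations, of 0.0318 in the fit without Spi-C NT and 0.0618 in the fit with it. Such values therefore cannot tell whether a number marks arrays that were made together. With the replicate number as a block, 4 members were higher in TSA(–) than in IVF and 10 lower in Spi-C NT than in TSA(–), where the member median was 0.03 beside 0.08 over all named genes, and no other count moved by over 1.5 times.

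Leaving out 1 array at a time gave 57 to 58 members higher and 10 to 12 lower in IVF than in OC, 5 to 9 higher and 2 to 5 lower in TSA(–) than in IVF, 11 to 16 and 2 to 4 in TSA(+), 0 to 1 and 0 in TSA(+) against TSA(–), 76 to 78 and 2 to 3 in Cumulus, 7 to 10 and 15 to 21 in Spi-C NT, and 0 and 0 between the amounts of Spi-C mRNA. Of 2080 values of named genes that were called, 2010 kept their direction and call, 62 kept the direction only and 8 changed direction.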

Other observations

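The mitochondrial ribosomal proteins, made from nuclear genes for the ribosome of the mitochondrion, were called in both directions after fertilization. Of 76 genes 28 were higher and 32 lower in IVF than in OC (median log2 difference −0.17), or 36.8% and 42.1% beside 27.8% and 44.4% of all named genes. In TSA(–) 19 were higher and 7 lower than in IVF (median 0.36), beside 10.3% and 13.5% of all named genes. In TSA(+) 22 were higher and 8 lower (median 0.34), or 28.9% and 10.5% beside 10.6% and 14.1%. In Cumulus 55 were higher and 7 lower than in IVF (median 1.68), or 72.4% and 9.21% beside 29.7% and 34.7%. In Spi-C NT 14 were higher and 2 lower than in TSA(–) (median 0.16), or 18.4% and 2.63% beside 12.7% and 11.4%. Mrpl19, chosen after its values were seen, fell from OC to IVF by 1.26 (limma adjusted p = 7.23e-06) and was 2.11 higher in TSA(–) than in IVF (limma adjusted p = 8.28e-09), while Mrpl12, well above background on 5 of 7 OC arrays, rose by 6.58 from OC to IVF (limma adjusted p = 1.97e-16).

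Of the genes that control TOP mRNAs, 11 were measured, and 4 were higher and 5 lower in IVF than in OC (36.4% and 45.5%, beside 27.8% and 44.4% of all named genes). The kinase Mtor fell by 2.83 and its activator Rheb by 3.60 (limma adjusted p = 9.45e-16 and 1.26e-19), while the S6 kinase gene Rps6kb1 rose by 2.95 and Tsc1, a repressor of the pathway that was well above background on 4 of 7 OC arrays, by 5.28 (limma adjusted p = 7.73e-14 and 2.61e-12). Of the 8 escorts that carry ribosomal proteins to the nucleolus or into the particle, 2 were higher and 4 lower in IVF than in OC, shares near those of all named genes. Pdcd2, which escorts Rps2 and was well above background on 4 of 7 OC arrays, rose by 7.62 (limma adjusted p = 1.58e-14), and its relative Pdcd2l fell by 3.59 (limma adjusted p = 7.34e-18).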
